A study of Homo sapiens with 18 samples.

Results

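The genes described here carry out RNA silencing, deadenylation and decapping in human cells. They are 39 genes taken by symbol from a list ordered by step, from the cutting of miRNA precursors to the decay of the miRNA itself. The rule that names them uses their known roles and no measured value, although earlier results of these data were known when it was written. The whole transcriptome table held 38055 genes, and 38 of the 39 had a row in it. DCP1A was not analysed here.

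RNA came from whole HCT116 cells, an established colorectal carcinoma line of epithelial origin with wild-type genotype, grown in 2-dimensional culture in McCoy's 5A medium with serum. The whole transcriptome libraries were made on day 3, at 50% confluency, and on day 5, at 250% confluency, where cells lie in stacked layers, with 3 libraries on each day. Small-RNAseq libraries covered the same days and day 7, labelled as 400% confluency, again with 3 per day. Whole transcriptome values of day 7 were not analysed here. One cell line was used, and time in culture and cell density rose together, so they cannot be told apart. The replicates are labelled biological, and nothing says whether they were grown as separate cultures, so the p-values measure the spread between these libraries. The study asked how growth to high density affects the factors of RNA interference, and the comparison of day 5 with day 3 gives the transcript levels of those factors.

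In animal cells a primary miRNA transcript is cut by the Microprocessor, exported, and cut again by Dicer, after which 1 strand is loaded into an Argonaute protein. Argonaute binds a TNRC6 scaffold, which recruits the CCR4-NOT and PAN2-PAN3 deadenylases to the target mRNA. The mRNA then loses its poly(A) tail, its cap is removed by DCP2 with its activators, and XRN1 degrades the body from the 5′ end. The miRNA can itself be destroyed when a target recruits the ZSWIM8 ubiquitin ligase, which acts on Argonaute.

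All 4 Argonaute transcripts, 2 of 3 TNRC6 transcripts and all 3 of PAN2, PAN3 and PABPC1 were higher on day 5, while 2 of 3 Dicer complex transcripts were lower. Of the 38 genes, 21 were higher and 7 were lower at an adjusted p under 0.05, while 10 did not pass (limma on log2(value + 1), Benjamini-Hochberg over 20129 genes). All 38 had passed the filter, which keeps genes whose normalized value reaches 10 in 3 or more of the 6 libraries. A normalized value is a number of reads divided by 1 size factor per library. The largest rises were in TNRC6B, PABPC1, CNOT3 and AGO2, and the largest fall was in CNOT7.

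These shares have to be read against the background. Over all genes tested, 56.9% passed the same test, 29.3% higher and 27.6% lower. Among the 8399 genes at or above the mean value of the lowest of the 38 genes, 73.3% passed, 37.5% higher and 35.8% lower. The 38 genes passed in 73.7% of cases, which is close to the share among genes at or above that level, and 55.3% were higher and 18.4% lower. Their median log2 fold change was 0.26, beside 0.01 for all genes tested. Most of the differences were small. The median size of the log2 fold change was 0.36 for the 38 genes and 0.51 for all genes tested, and 24 of the 38 differed by less than 1.5-fold. Only TNRC6B and PABPC1 passed the test with a difference of at least 2-fold, as did 17.8% of all genes. The libraries of the days did not overlap for 33 of the 38 genes, and for 65.0% of all genes.

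**Figure D1:**
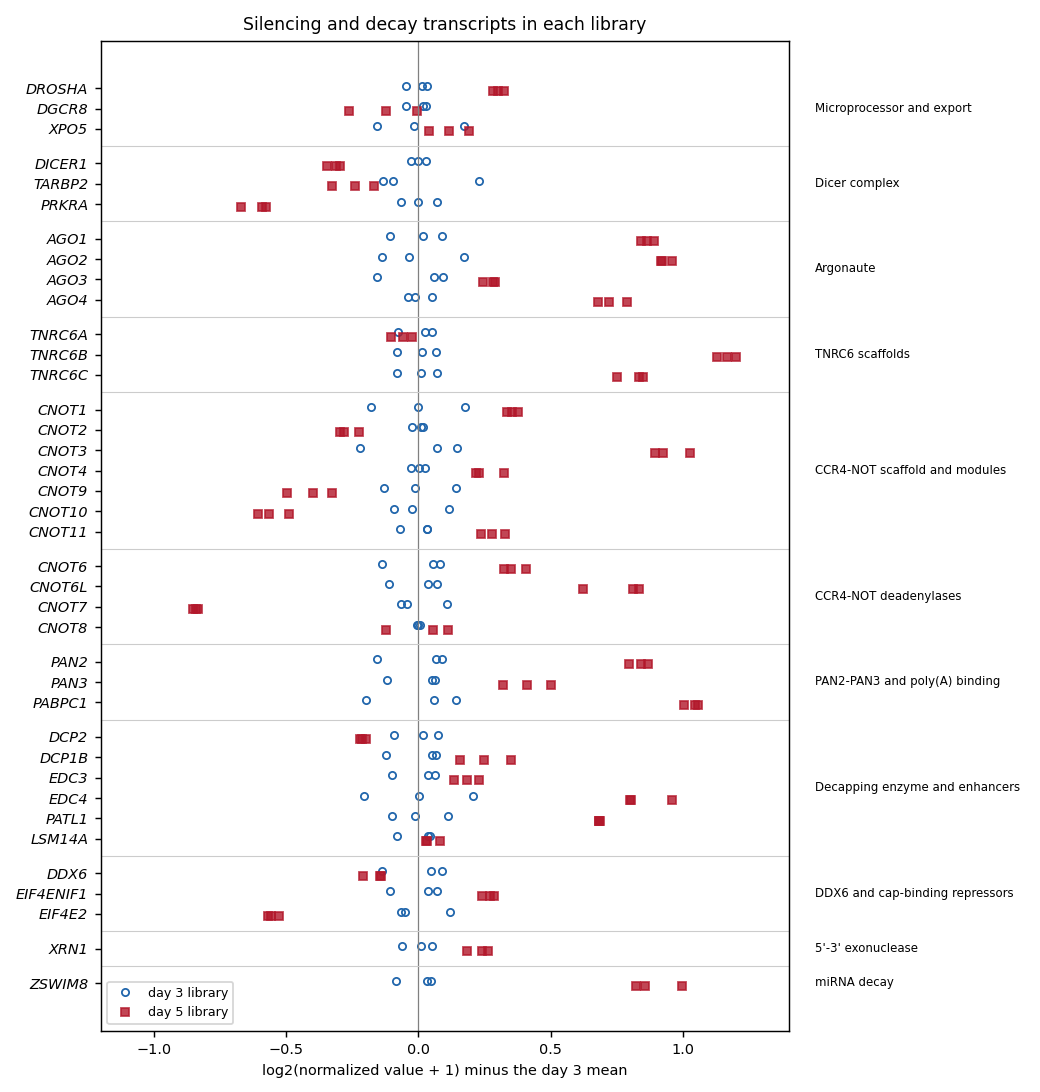
Each library's log2(normalized value + 1) minus the mean of the 3 day 3 libraries (horizontal axis, log2 units) for 38 silencing and decay genes (vertical axis), grouped by step; open circles are day 3 libraries and filled squares day 5 libraries. The days overlap for 5 genes, and CNOT7 lies furthest to the left and TNRC6B furthest to the right on day 5.

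The balance of rises and falls moved with the scaling. Centring each library on its median shifted the median log2 fold change of all genes from 0.01 to -0.16, and 12 of the 38 genes were then called higher and 12 lower. For all genes that scaling gave 4670 higher and 7156 lower calls, in place of 5900 and 5550. With library totals the 38 genes gave 22 higher and 5 lower calls, and all genes 6395 and 4982. Transcript length and GC content also moved with the differences. The 21 genes that were higher had a median transcript length of 6052 bases, the 7 that were lower 2844 bases and the 10 others 4125 bases. Across all 19288 genes with a transcript in GENCODE release 44, Spearman's rho with the log2 fold change was 0.30 for length and 0.44 for GC content; across the 38 genes it was 0.36 and 0.30. These are descriptions across genes that share the same 6 libraries. A correction of each library for GC content and length, added after the data were examined, left 15 higher and 10 lower calls among the 38 genes. Over all 19288 genes it left 4217 higher and 5419 lower calls.

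The calls of 14 genes held under all 14 alternatives run for single genes, which are other scalings, another pseudocount, no filter on low values, 2 count models, the correction for GC content and length, the replicate number as a block, and the removal of each library in turn. Of these, 10 were higher: AGO1, AGO2, AGO4, TNRC6B, TNRC6C, CNOT3, CNOT6L, PAN2, PABPC1 and PATL1. The other 4 were lower: PRKRA, CNOT10, CNOT7 and EIF4E2. A further 14 called genes lost their call under at least 1 alternative, and each is described as such where its step is given.

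**Figure D2:**
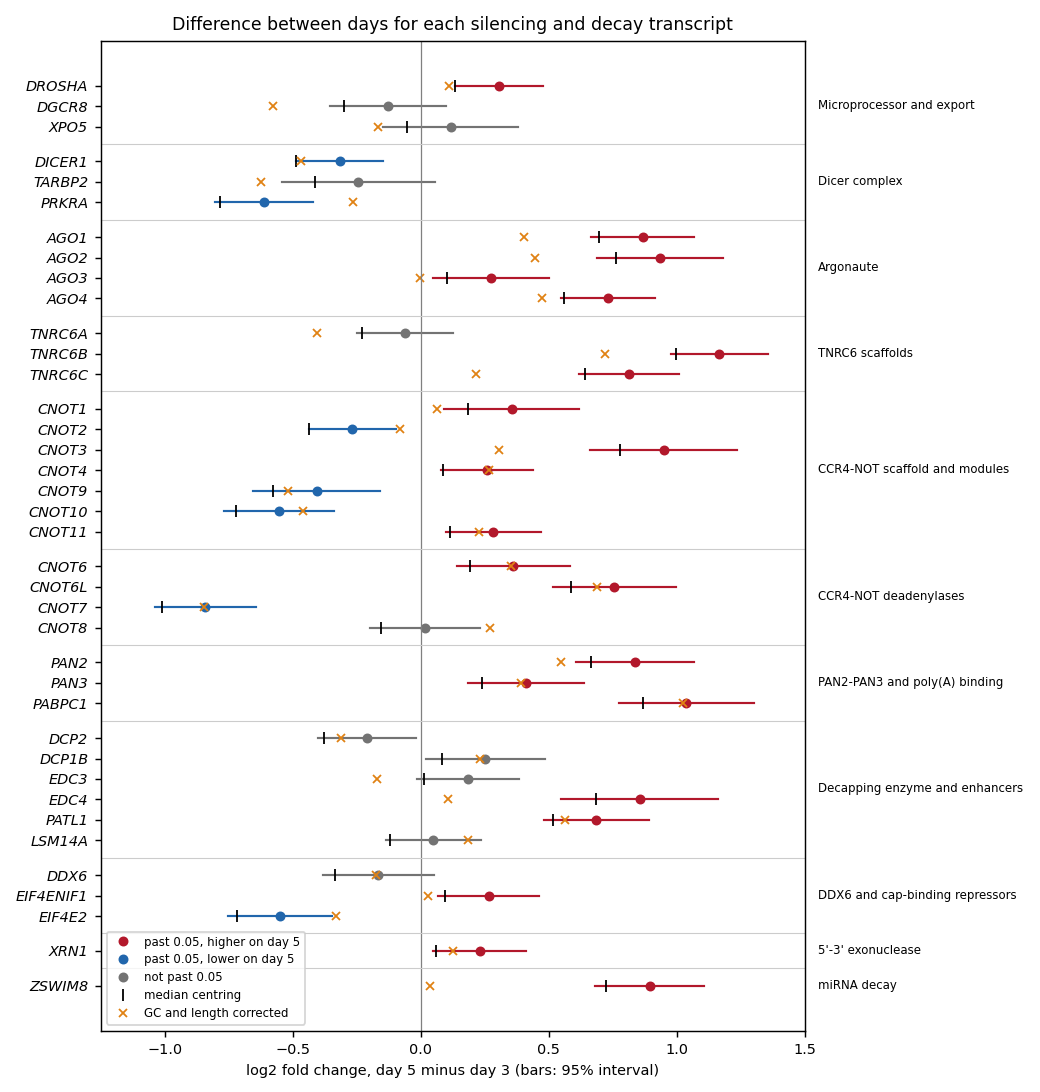
Log2 fold change of day 5 over day 3 (horizontal axis) for 38 silencing and decay genes (vertical axis), with 95% intervals from limma as bars; colour gives the call, the black stroke the value after median centring and the orange cross the value after the correction for GC content and length. Values run from -0.84 for CNOT7 to 1.17 for TNRC6B, and the crosses of AGO3, EDC4 and ZSWIM8 lie near 0.

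The first step is nuclear. DROSHA is the RNase of the Microprocessor and DGCR8 is its RNA-binding partner, while XPO5 carries the cut hairpin to the cytoplasm. DROSHA read 3413, 3454 and 3268 on day 3 and 4232, 4167 and 4113 on day 5. Every day 5 library was above every day 3 library, with a log2 fold change of 0.30 (SE 0.07, limma adjusted p = 0.0117). The call was lost after median centring (0.13, adjusted p = 0.171), without the filter (adjusted p = 0.0899) and with the correction for GC content and length (0.11, adjusted p = 0.228). DGCR8 was at 1756 to 1850 on day 3 and 1511 to 1808 on day 5, and its days overlapped (log2 fold change -0.13, 95% interval -0.36 to 0.10, limma adjusted p = 0.275). It passed as lower after median centring (-0.30, adjusted p = 0.0256) and with the correction for GC content and length (-0.58, adjusted p = 0.00269). XPO5 ranged from 3601 to 4524 on day 3 and from 4129 to 4578 on day 5, which also overlapped (0.12, interval -0.15 to 0.38). The direction of XPO5 turned after median centring, to -0.05, and with the correction for GC content and length, to -0.17.

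The DGCR8 transcript offers another readout of the same step. Its annotated exons hold the hairpins of MIR1306 (GRCh38 chr22:20086058-20086142, plus strand) and MIR3618 (GRCh38 chr22:20085746-20085833, plus strand), and the Microprocessor cuts its partner's own mRNA there. Only miR-1306-5p had a row in the small RNA tables. Its mature sequence, from RefSeq on GRCh38 at chr22:20086072-20086093, is shown with the seed (bases 2 to 8) in capitals, because it is the only measured product of these hairpins.
miR-1306-5p: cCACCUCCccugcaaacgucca

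On the deposited log2 scale miR-1306-5p was 4.56, 4.85 and 4.79 on day 3, 5.11, 5.37 and 5.33 on day 5, and 5.19, 5.30 and 5.33 on day 7. All libraries of both later days lay above all libraries of day 3. The log2 difference was 0.54 on day 5 (SE 0.12, limma adjusted p = 0.0249) and 0.54 on day 7 (SE 0.12, limma adjusted p = 0.00518). Of all miRNAs tested, 14.8% passed on day 5 and 53.7% on day 7. The day 5 call was lost without the filter on low values (adjusted p = 0.116), without day 3 replicate 1 (0.45, adjusted p = 0.0919), without day 5 replicate 2 (0.49, adjusted p = 0.103) and without day 5 replicate 3 (0.51, adjusted p = 0.0958). The day 7 difference depended on the scaling: relative to the summed values of all miRNAs it was 0.04 (adjusted p = 0.822). As a part of that sum, miR-1306-5p was 15.1 ± 2.7 ppm on day 3, 21.6 ± 1.3 ppm on day 5 and 15.4 ± 0.67 ppm on day 7 (SD, n = 3). The DGCR8 transcript and the miRNA were measured in different libraries, so their levels were not compared within a sample.

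**Figure D3:**
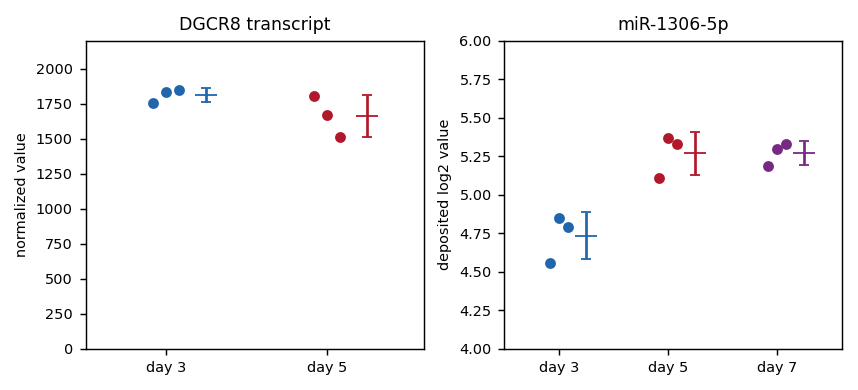
Left, normalized value of the DGCR8 transcript in each whole transcriptome library of days 3 and 5; right, deposited log2 value of miR-1306-5p in each small RNA library of days 3, 5 and 7. Points are libraries, and the crossbars beside them give the mean and SD of 3 libraries. The DGCR8 days overlap, and every miR-1306-5p value of days 5 and 7 is above 4.85, the highest on day 3.

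Of the Dicer complex, 2 of 3 transcripts were lower on day 5. DICER1 cuts the hairpin to its mature length, and TARBP2 and PRKRA are double-stranded RNA-binding partners of Dicer. PRKRA, also known as PACT, read 2197, 2100 and 2309 on day 3 and 1476, 1383 and 1460 on day 5. Its values were lower in all 3 day 5 libraries, by 1.53-fold (log2 fold change -0.61, SE 0.08, limma adjusted p = 0.00114). After the correction for GC content and length it was -0.27, still past the threshold. DICER1 read 5673, 5795 and 5575 on day 3 and 4625, 4582 and 4471 on day 5, with no overlap (log2 fold change -0.32, SE 0.07, limma adjusted p = 0.00928). The DICER1 call was lost with library totals (-0.25, adjusted p = 0.0528) and without the filter (adjusted p = 0.0779). TARBP2 was at 695 to 895 on day 3 and 609 to 679 on day 5. Its days were apart, but the difference did not pass (-0.24, interval -0.54 to 0.05, limma adjusted p = 0.135); it passed after median centring (-0.41), with the correction (-0.62) and by edgeR (adjusted p = 0.0255).

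The Argonautes hold the guide strand, and AGO2 is the main member that can cut a fully paired target. All 4 transcripts were higher on day 5. AGO2 read 2764, 2964 and 3425 on day 3 and 5754, 5738 and 5906 on day 5. The days were far apart, with a 1.91-fold rise (log2 fold change 0.93, SE 0.10, limma adjusted p = 0.000655). AGO1 read 3127, 3405 and 3578 on day 3 and 6034, 6132 and 6236 on day 5, a 1.82-fold rise (log2 fold change 0.87, SE 0.08, limma adjusted p = 0.000447). AGO4, the lowest of the family per kilobase, was at 581, 556 and 546 on day 3 and 898, 925 and 970 on day 5. Its rise was 1.66-fold (log2 fold change 0.73, SE 0.08, limma adjusted p = 0.000566).

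AGO3 stood apart from its relatives. It read 3954, 3866 and 3329 on day 3 and 4393, 4536 and 4511 on day 5, which did not overlap but gave a log2 fold change of only 0.27 (SE 0.09, limma adjusted p = 0.0464). The call was lost under 10 of the 14 alternatives, among them the removal of any library but day 3 replicate 1 (0.20 to 0.30, adjusted p up to 0.124). With the correction for GC content and length AGO3 was at -0.003 (adjusted p = 0.973), while AGO1 at 0.40, AGO2 at 0.45 and AGO4 at 0.47 still passed. AGO4, AGO1 and AGO3 lie in a row on the plus strand of chromosome 1, with 11917 bases between AGO4 and AGO1 and 185 bases between AGO1 and AGO3 in GENCODE release 44.

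Within a library, shares of a family do not depend on the scaling between libraries. Values were divided by transcript length before the shares were taken. The summed Argonaute level per kilobase rose from 721 ± 21 to 1201 ± 21 (SD, n = 3), a ratio of 1.67 (two-sided exact permutation p = 0.1, the lower limit with 3 libraries a day). On both days the order of the mean levels per kilobase was AGO1, AGO2, AGO3 and AGO4, but on day 3 the shares of AGO2 and AGO3 overlapped. That order rests on the lengths used. Undivided, AGO3 had the highest mean value on day 3, at 3716, beside 3370 for AGO1 and 3051 for AGO2. AGO3 was 28.8%, 27.1% and 22.9% of the Argonaute level on day 3 and 18.9%, 19.3% and 18.8% on day 5, which did not overlap. AGO2 went from 29.0% ± 2.4 to 33.1% ± 0.28 and AGO1 from 34.1% ± 1.3 to 37.3% ± 0.06 (SD, n = 3). Per kilobase, AGO1 was at 246 on day 3 and 447 on day 5, and AGO2 at 209 and 397. The share of AGO4 was 10.7% ± 0.66 on day 3 and 10.7% ± 0.23 on day 5, with overlapping libraries (exact permutation p = 0.9).

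TNRC6A, TNRC6B and TNRC6C, the GW182 proteins, bridge Argonaute and the deadenylases. Their transcripts moved unequally. TNRC6B read 3610, 3997 and 3850 on day 3 and 8341, 8559 and 8775 on day 5. This was the largest rise among the 38 genes, at 2.24-fold (log2 fold change 1.17, SE 0.08, limma adjusted p = 0.000221), and it was 0.72 after the correction for GC content and length. TNRC6C read 1035, 1147 and 1101 on day 3 and 1949, 1972 and 1840 on day 5, a 1.76-fold rise (log2 fold change 0.81, SE 0.08, limma adjusted p = 0.000491). The correction left 0.22 of it, still past the threshold.

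TNRC6A was not called. It read 4011, 4387 and 4305 on day 3 and 4162, 3944 and 4065 on day 5, and the days overlapped. The log2 fold change was -0.06, with an interval from -0.25 to 0.13 (limma adjusted p = 0.525). It was 0.01 with library totals, -0.23 after median centring (adjusted p = 0.0294) and -0.41 with the correction for GC content and length (adjusted p = 0.0038), so its direction depended on the scaling. The intervals of TNRC6B (0.98 to 1.35) and TNRC6C (0.62 to 1.01) lie wholly above that of TNRC6A.

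The make-up of the TNRC6 family did not overlap between the days. TNRC6A was 61.4%, 61.1% and 61.6% of the family level per length on day 3 and 43.2%, 41.4% and 42.2% on day 5. TNRC6B was 25.7%, 25.9% and 25.6% on day 3 and 40.2%, 41.7% and 42.3% on day 5. TNRC6C was 13.0% ± 0.09 on day 3 and 16.4% ± 0.68 on day 5 (SD, n = 3). On day 5 the shares of TNRC6A and TNRC6B lay next to each other, at 42.3% ± 0.93 and 41.4% ± 1.0, with overlapping libraries. That nearness rests on the transcript lengths used, 8491 bases for TNRC6A and 18280 for TNRC6B. Undivided, the mean values of TNRC6A were 4234 on day 3 and 4057 on day 5, beside 3819 and 8558 for TNRC6B. Over the 9 shares tested, 8 had an exact permutation p of 0.1 (0.1125 by Benjamini-Hochberg), the smallest this design allows. The summed TNRC6 level per kilobase went from 813 ± 39 to 1131 ± 7.2 (SD, n = 3), a ratio of 1.39 (exact permutation p = 0.1). This was below the Argonaute ratio of 1.67. The difference between these ratios was not tested, and both ratios depend on the transcript lengths used to divide the values.

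**Figure D4:**
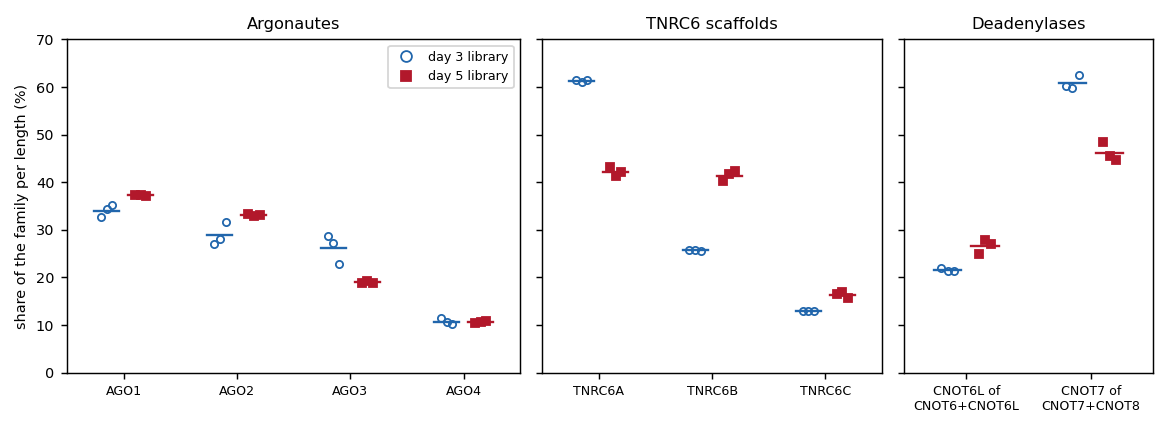
Share of each paralog in its family's level per transcript length (vertical axis, percent) in each library; open circles are day 3 libraries, filled squares day 5 libraries, and lines the means of 3 libraries. TNRC6A falls from 61.4% to 42.3% and CNOT7 from 60.9% to 46.2%, while AGO4 overlaps between the days.

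The TNRC6 paralogs differed in response, and AGO4 is the only Argonaute gene with a match among the 3 with an entry. Stretches of 100 bases near their RefSeq start sites are therefore shown (GRCh38.p14, plus strand). For TNRC6A and TNRC6B, which had no match, the stretch lies just before the start site. For TNRC6C and AGO4 it was placed around a match. TNRC6C has 4 promoters, beside 1 each for TNRC6A, TNRC6B and AGO4, and a promoter with a match was shown. The stretches were chosen in part by the match and do not compare the genes evenly. The positions are chr16:24729551-24729650 for TNRC6A, chr22:40044734-40044833 for TNRC6B, chr17:77958550-77958649 for TNRC6C and chr1:35807849-35807948 for AGO4. Capitals mark ACGTG or its reverse complement CACGT, searched on both strands, where both can overlap in CACGTG.
TNRC6A: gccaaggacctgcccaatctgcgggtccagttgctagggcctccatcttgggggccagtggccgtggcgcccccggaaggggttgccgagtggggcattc
TNRC6B: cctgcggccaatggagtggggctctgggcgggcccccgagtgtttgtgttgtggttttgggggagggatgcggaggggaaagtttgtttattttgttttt
TNRC6C: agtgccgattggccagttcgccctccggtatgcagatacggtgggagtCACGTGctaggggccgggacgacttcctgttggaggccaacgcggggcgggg
AGO4: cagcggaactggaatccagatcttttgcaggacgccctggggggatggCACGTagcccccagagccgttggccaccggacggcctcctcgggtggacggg

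These letters occurred in a promoter (250 bases before to 50 after a start site) of 12 of the 34 genes with an entry, and of 24.9% of all 27305 genes with one. A gene counts here if any of its promoters has a match, so genes with more promoters have more places for one. Counted by promoter, the letters occurred in 13 of the 55 promoters of these genes and in 21.4% of all 35116 promoters. Among genes with an entry and a value they occurred for 6 of 18 that were higher, 4 of 6 that were lower and 2 of 9 that did not pass. TNRC6B, the gene that rose most, has no match in the window. A match is only a description of the sequence.

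The CCR4-NOT complex is built on CNOT1, a large scaffold. CNOT2 and CNOT3 form the NOT module, CNOT9 binds recruiting proteins such as TNRC6, CNOT10 and CNOT11 bind the end of the scaffold, and CNOT4 is a ubiquitin ligase. All 7 transcripts passed the test, 4 higher and 3 lower, so partners within a module went opposite ways. CNOT3 read 1078, 1319 and 1389 on day 3 and 2558, 2335 and 2381 on day 5. It rose 1.93-fold (log2 fold change 0.95, SE 0.12, limma adjusted p = 0.00104), and by 0.30 after the correction for GC content and length. CNOT2 read 4461, 4333 and 4436 on day 3 and 3589, 3625 and 3771 on day 5, a fall with no overlap (log2 fold change -0.27, SE 0.07, limma adjusted p = 0.0184).

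CNOT10 and CNOT11 bind each other and also differed. CNOT10 read 2770, 2904 and 3197 on day 3 and 2102, 1997 and 1937 on day 5. It fell 1.47-fold (log2 fold change -0.55, SE 0.09, limma adjusted p = 0.00264). CNOT11 read 1629, 1748 and 1749 on day 3 and 2072, 2145 and 2014 on day 5, and its log2 fold change was 0.28 (limma adjusted p = 0.0203). CNOT9 lay between 3788 and 4572 on day 3 and between 2938 and 3306 on day 5 (-0.41, limma adjusted p = 0.0155). CNOT1, the highest of these 7 per kilobase, was at 13848, 15645 and 17714 on day 3 and 19771, 19988 and 20339 on day 5 (0.36, limma adjusted p = 0.0315). Its day 3 libraries spread widely while its day 5 libraries lay close together. CNOT4 was at 1258 to 1304 and then 1491 to 1607 (0.26, limma adjusted p = 0.0257).

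Of these 7 genes, CNOT3 and CNOT10 kept their calls under all alternatives. CNOT9 lost its call without the filter (adjusted p = 0.0751) and without day 5 replicate 2 (-0.36, adjusted p = 0.0577). CNOT2 (-0.28, -0.25 and -0.26) and CNOT11 (0.30, 0.28 and 0.26) each lost theirs without day 3 replicate 2, day 5 replicate 1 or day 5 replicate 2, with an adjusted p of at most 0.0694 and 0.0789. CNOT1 (0.27 to 0.37, adjusted p up to 0.0853) lost its call without any library but day 3 replicate 3, which was its highest on that day. CNOT4 (0.22 to 0.28, adjusted p up to 0.0997) likewise lost its call without any library but day 3 replicate 3. The correction for GC content and length ended the calls of CNOT1 (0.06) and CNOT2 (-0.08). After median centring CNOT1, CNOT4 and CNOT11 no longer passed, at 0.19, 0.09 and 0.11. CNOT1, CNOT2, CNOT4 and CNOT11 also lost their calls without the filter and with the replicate number as a block. CNOT2 lost its call with library totals as well (-0.20, limma adjusted p = 0.0735).

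The catalytic subunits come in 2 pairs of close paralogs. CNOT7 and CNOT8 are one pair and CNOT6 and CNOT6L the other, and a complex holds 1 of each pair. CNOT7 read 8684, 8539 and 9651 on day 3 and 4957, 4989 and 5016 on day 5. This was the largest fall among the 38 genes, at 1.79-fold (log2 fold change -0.84, SE 0.08, limma adjusted p = 0.00046), and the value was nearly the same after the correction for GC content and length (-0.85). CNOT8 read 2031, 2040 and 2046 on day 3 and 1874, 2119 and 2204 on day 5, with day 5 libraries on both sides of day 3 (0.02, interval -0.20 to 0.23). Its direction turned after median centring (-0.16) and without day 5 replicate 2 or 3, and it passed with the correction at 0.27. CNOT7 made up 60.3%, 59.8% and 62.6% of the pair per length on day 3 and 48.4%, 45.5% and 44.7% on day 5. Per length it thus went from the larger to the smaller part. Without division by length CNOT7 stayed the larger part on both days. Its mean values were 8958 and 4987, beside 2039 and 2065 for CNOT8.

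The other pair rose. CNOT6L read 1321, 1463 and 1497 on day 3 and 2193, 2503 and 2541 on day 5, a 1.69-fold rise (log2 fold change 0.76, SE 0.10, limma adjusted p = 0.00121). CNOT6 was at 3341 to 3894 on day 3 and 4611 to 4878 on day 5 (0.36, limma adjusted p = 0.0157), and lost the call after median centring (0.19), without the filter (adjusted p = 0.0841) and without day 5 replicate 3 (0.34, adjusted p = 0.0544). CNOT6L was 21.5% ± 0.31 of the pair on day 3 and 26.6% ± 1.5 on day 5 (SD, n = 3), with no overlap.

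PAN2 and PAN3 form the deadenylase that trims long tails first, and PABPC1 coats the tail and binds PAN3 and TNRC6. All 3 were higher on day 5. PABPC1 read 47414, 56641 and 60028 on day 3 and 109307, 112494 and 113305 on day 5. It rose 2.05-fold (log2 fold change 1.04, SE 0.11, limma adjusted p = 0.000587), and by 1.02 with the correction for GC content and length. Per kilobase it was by far the highest of the 38 genes, at 19117 and 39043, where EIF4E2, the next on day 3, was at 3153. That place of EIF4E2 rests on a transcript length of 967 bases. Undivided, its day 3 mean was 3049, below CNOT1 at 15736 and DDX6 at 13177. The rise of PABPC1 does not depend on length. The 7 PABPC1 pseudogenes in the table summed to 0.3% of its value on each day.

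PAN2 read 1126, 1107 and 948 on day 3 and 1835, 1897 and 1930 on day 5, a 1.78-fold rise (log2 fold change 0.84, SE 0.09, limma adjusted p = 0.000756), and was at 0.55 with the correction for GC content and length. PAN3 read 2354, 2336 and 2077 on day 3 and 2814, 2991 and 3187 on day 5, a smaller difference without overlap (0.41, limma adjusted p = 0.0105). PAN3 lost its call after median centring (0.24, adjusted p = 0.095) and without the filter (adjusted p = 0.0613). Per kilobase, PAN2 went from 234 to 417 and PAN3 from 404 to 536.

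DCP2 removes the cap, DCP1B is one of the DCP1 activators, and EDC3, EDC4, PATL1 and LSM14A are enhancers or scaffolds of decapping found in P-bodies. Of the 6 genes measured here, EDC4 and PATL1 were higher and the other 4 did not pass. PATL1 read 1979, 2100 and 2291 on day 3 and 3406, 3413 and 3404 on day 5. It rose 1.61-fold (log2 fold change 0.69, SE 0.08, limma adjusted p = 0.000977), with nearly equal day 5 libraries. EDC4 read 1054, 1218 and 1403 on day 3 and 2365, 2124 and 2121 on day 5, a 1.81-fold rise (log2 fold change 0.85, SE 0.13, limma adjusted p = 0.00195). With the correction for GC content and length, EDC4 was at 0.11 and no longer passed (adjusted p = 0.337), while PATL1 was at 0.56.

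The decapping enzyme itself was not called. DCP2 read 6038, 6293 and 5604 on day 3 and 5123, 5154 and 5212 on day 5. Its days were apart but the difference did not pass (log2 fold change -0.21, interval -0.40 to -0.02, limma adjusted p = 0.0612); it passed after median centring at -0.38, with the correction at -0.31, without day 3 replicate 3 at -0.26 (adjusted p = 0.0272), and by edgeR (adjusted p = 0.0121) and DESeq2 (adjusted p = 0.0138). DCP1B was at 492 to 561 and then 596 to 682 (0.25, limma adjusted p = 0.0635), and passed with library totals (0.32, adjusted p = 0.0206) and by edgeR (adjusted p = 0.0249). EDC3 was at 1266 to 1416 and then 1489 to 1591 (0.18, limma adjusted p = 0.103). It passed with library totals (0.25, adjusted p = 0.0374) and by edgeR (adjusted p = 0.0451), and turned to -0.17 with the correction. LSM14A overlapped between the days, at 4988 to 5438 and 5388 to 5583 (0.05, interval -0.14 to 0.23), and turned to -0.12 after median centring.

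DDX6 is the helicase that joins CCR4-NOT to translational repression and decapping, EIF4ENIF1 (4E-T) binds cap-binding proteins, and EIF4E2 (4EHP) holds the cap without allowing initiation. Of these 3, 1 was higher, 1 lower and 1 did not pass. EIF4E2 read 2936, 2905 and 3306 on day 3 and 2115, 2052 and 2068 on day 5. It fell 1.46-fold (log2 fold change -0.55, SE 0.08, limma adjusted p = 0.0022), and was at -0.33 with the correction for GC content and length. DDX6 was at 11968 to 13978 on day 3 and 11369 to 11922 on day 5, just apart (-0.17, interval -0.38 to 0.05, limma adjusted p = 0.161); it passed after median centring at -0.34 and by edgeR (adjusted p = 0.0402). EIF4ENIF1 was at 939 to 1062 and then 1195 to 1232 (0.27, limma adjusted p = 0.0324), a call lost under 9 of the 14 alternatives, including the removal of any library but day 3 replicate 3 (0.21 to 0.28, adjusted p up to 0.095).

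XRN1, the exonuclease that degrades decapped mRNA, read 3388, 3493 and 3226 on day 3 and 3824, 3981 and 4043 on day 5. The days did not overlap, with a log2 fold change of 0.23 (SE 0.08, limma adjusted p = 0.0402). Removing any 1 of the 6 libraries ended the call (0.20 to 0.26, adjusted p 0.0644 to 0.118). The XRN1 call held under only 4 of the 14 alternatives, and its lowest value among them was 0.06. ZSWIM8, the ligase adaptor of target-directed miRNA decay, read 880, 871 and 802 on day 3 and 1506, 1541 and 1699 on day 5. It was 1.86-fold higher (log2 fold change 0.89, SE 0.09, limma adjusted p = 0.00048), and no removal of a library or change of scaling ended that call. With the correction for GC content and length it was at 0.03 (adjusted p = 0.816).

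Genes that work beside these were counted by list. Of 21 tested CCR4-NOT adaptors, which bring the complex to chosen mRNAs, 14 were higher and 2 lower, with a median log2 fold change of 0.54; after the correction for GC content and length the counts were 9 and 3. The largest rise was in ZFP36L1, an AU-rich element binder (4108 ± 312 to 11554 ± 428, log2 fold change 1.49, limma adjusted p = 0.000185), and the largest fall in BTG3, of the BTG/TOB family (-0.72, and -0.34 with the correction). Of 17 poly(A) binding proteins and other deadenylases, 7 were higher and 5 lower, after median centring 5 and 5, and with the correction 3 and 4; the largest rise was in PABPC3 (1.01), an intronless copy of PABPC1 whose reads may come in part from it, and the largest fall in LARP4 (-0.62), a poly(A)-binding protein.

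Genes listed for 3′-5′ decay and for the LSM ring were mostly lower, and the other decapping accessory factors went both ways. Of 17 genes listed for the exosome and the Ski complex, which degrade mRNA from the 3′ end, 13 were lower and 2 higher. The list also holds XRN2 (-0.41, called lower), which belongs to neither complex. The median log2 fold change of the list was -0.63. Its extremes were EXOSC9, a ring subunit (-1.48), and EXOSC6, another ring subunit (0.51, and 0.34 with the correction). After the correction 12 were lower and 1 higher. Of 16 genes of the LSM ring and decapping accessory factors, 10 were lower and 3 higher. The lower genes were LSM1 to LSM7, PNRC2, NBDY and EIF4E. LSM14B, PNRC1 and UPF1 were higher, and DCPS, NUDT16 and EIF4E3 did not pass. LSM1 to LSM7, the ring that binds shortened tails ahead of decapping and that shares most subunits with a nuclear ring on U6 RNA, were lower in 7 of 7 cases (-1.44 for LSM3 to -0.49), also after median centring, with library totals and with the correction; these 7 were grouped after their values were seen. PNRC1, a decapping coactivator, had the largest rise of that list, from 520 ± 38 to 2917 ± 198 (SD, n = 3; log2 fold change 2.49, limma adjusted p = 0.000104).

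Of 14 chaperones and import factors of Argonaute loading, 7 were lower and 2 higher, from HSPA8 (-1.45) to HSP90AB1 (0.51, and 0.34 after median centring, where it did not pass); after median centring 9 were lower and none higher (0 of 14), and with the correction 6 and 2. Among 19 factors of miRNA processing and trimming, 9 were higher and 6 lower, after median centring 6 and 7, and with the correction 4 and 7. KHSRP, which binds precursors of some miRNAs, had the largest rise (1.14, and 0.47 with the correction), and LIN28B, an inhibitor of let-7 maturation, the largest fall (-1.69) at low values, from 19.1 ± 7.8 to 5.0 ± 0.72 (SD, n = 3). Of 7 partners and paralogs of the miRNA decay ligase, 4 were higher and 2 lower, from ZSWIM4 (2.28, and 1.45 with the correction) to ELOC (-1.23), a subunit shared by many ubiquitin ligases. Over all 111 tested genes of these lists, 41 were higher and 45 lower, with a median log2 fold change of 0.02.

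**Figure D5:**
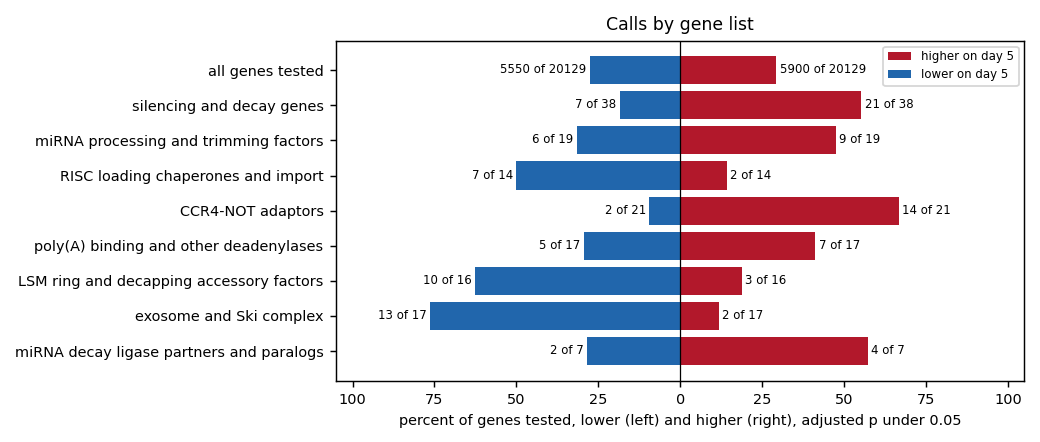
Percent of tested genes called higher (right) or lower (left) on day 5 at a limma adjusted p under 0.05, for all genes, for the 38 silencing and decay genes and for 7 lists of related genes, with the counts beside each bar. The bars of the CCR4-NOT adaptors reach furthest right (14 of 21) and those of the exosome and Ski complex furthest left (13 of 17).

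The whole transcriptome libraries held 27470978 to 56689369 reads on genes, and the 38 genes had between 385 (AGO4) and 109422 (PABPC1) reads in a library; no interval for counting error alone was computed, and the spread between libraries was larger on day 3 for 27 of the 38 genes. In bulk RNA, fewer cells of a type and less RNA per cell cannot be told apart. Of 3 transcripts the study used as internal controls, HPRT1 (-0.07) and ZMYM4 (-0.07) did not pass, and SNRNP200 was 2.36-fold higher on day 5 (log2 fold change 1.24, and 0.73 with the correction). HPRT1 passed as higher with the correction (0.40), and ZMYM4 as lower after median centring (-0.24). Of 8 epithelial markers, CDX1 and VIL1 were close to 0 and too low to test, and 5 of the other 6 were higher on day 5; the list summed to 37112 to 55188 on day 3 and 100344 to 101436 on day 5. The 12 measured markers of fibroblasts, leukocytes and endothelium summed to 551 to 628 and then 1168 to 1236, of which COL1A1 made up 521 and 1129 on average; without it the sums were 60.6 to 68.0 and 75.9 to 88.0, and DCN was at 0 in all day 5 libraries. The part of these markers in the differences above was not tested.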

How the data were processed

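Whole transcriptome values of HCT116 cells were compared between day 3 and day 5, with 3 libraries per day, and small RNA values between day 3 and days 5 and 7. Groups came from the sample labels. The genes and lists were chosen with earlier results of these data known. All 38 genes with a row are named; from each related list, the largest rise and the largest fall past the threshold without overlap are named, and the 3 internal controls.

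Per the methods, the authors depleted ribosomal RNA, ligated adapters with molecular identifiers, and mapped paired reads to the reverse strand of ENSEMBL genes on hg38 in CLC Genomics Workbench. Quality control used FastQC 0.11.8 and MultiQC 1.7, per the submitters' processing notes. The deposited signal of a gene in a library is normalized. These signal values were whole multiples of 1 read (tolerance 0.01) for 100% of values, so reads were recovered; edgeR called 12280 genes on them. Whether molecular identifiers were collapsed is not given in the sources used here. The authors made the deposited log2 values of 2167 mature miRNAs by trimming with Cutadapt, mapping to miRNA sequences of GRCh37 and TMM normalization. Their depth per library is unknown from these values. The tables also hold the authors' own fold changes, test statistics and p-values, which were not used.

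limma 3.58.1 in R 4.3.3 was fitted to log2(value + 1), or to the deposited log2 values for miRNAs, over features at 10 or more in at least 3 of the 6 libraries compared, with Benjamini-Hochberg adjustment and a threshold of 0.05; 539 miRNAs were tested on day 5 and 559 on day 7. For miRNAs the minimum of 10 was applied to back-transformed values. Fold changes are on this log2 scale. The step was tested on simulated data. Paralog shares used the canonical transcript length of GENCODE release 44 and two-sided exact permutation tests. edgeR 4.0.16 and DESeq2 1.42.0 on recovered reads were alternatives. Of 13081 rows without a symbol, 10653 were named through a reference table. The planned DCP1A and DCP1B share, miR-1306-3p and miR-3618 were not analysed here. Tables and figures used Python 3.11.15, pandas 2.3.3, numpy 2.4.6 and matplotlib 3.10.9.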

Additional observations from a re-analysis of the deposited data

How the results depend on the processing

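The 38 genes gave 28 calls, 21 higher and 7 lower. Without the filter on low values there were 16 (12 higher, 4 lower), after median centring 12 higher and 12 lower, and with a minimum of 2-fold 2 (2 higher, 0 lower); over all genes that minimum left 3589, of which 2059 were higher and 1530 lower. More genes are tested without the filter, and over all genes 9235 then passed (4744 higher, 4491 lower). The cause of these changes in the counts was not tested. Leaving out single libraries gave 20 to 27 calls, edgeR 33, DESeq2 29, library totals 27 and a pseudocount of 0.1 again 28. The direction turned for XPO5 after median centring (-0.054) and with the correction for GC content and length (-0.168), for AGO3 (-0.003) and EDC3 (-0.173) with that correction, for TNRC6A with library totals (0.006), for LSM14A after median centring (-0.122), and for CNOT8 after median centring (-0.155), without day 5 replicate 2 (-0.005) and without day 5 replicate 3 (-0.033), where its values without single libraries ran from -0.033 to 0.084. The cause was not tested. The miR-1306-5p difference on day 5 was 0.449 to 0.615 without single libraries and lost its call without the filter (0.535, adjusted p = 0.116); on day 7 it was 0.036 with library totals. Without division by length the TNRC6B share rose by 17.13 points in place of 15.7, and the CNOT7 share fell by 10.68 points, where with that division it fell by 14.7; these values follow from the lengths used. Without division by length, the day 5 minus day 3 differences of the TNRC6A, AGO3 and CNOT6L shares changed by less than the replicate spread. The shares themselves depend on the lengths used.

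The replicate numbers did not pair the whole transcriptome libraries. Deviations of same-numbered libraries correlated at -0.0112, 0.0343 and 0.0234, and not every library correlated best with its own number. In the small RNA tables the same-numbered correlations for day 5 were 0.0748, 0.118 and 0.11. There each day 3 library correlated best with its own number, and the other pairs gave -0.0954 to -0.0131. For day 7 the same-numbered correlations were 0.112, 0.0111 and 0.0367. Day 3 replicate 2 correlated best with day 7 replicate 3 (0.0565). With the replicate number as a block, 21 of the 38 genes were called (15 higher, 6 lower), and miR-1306-5p kept its calls (adjusted p 0.0186 and 0.00367). With 3 libraries per day, a missing call does not show equal levels.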
